A study of Mus musculus with 6 samples.

Results

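The mouse collagen genes measured on the array platform were described across sorted blood progenitors of the bone marrow. A gene was a member if its platform symbol had the form Col, a number, the letter a and a number, such as Col1a2, and 42 of the 18194 genes measured did. The members were covered by 82 probe sets, and each of the 27 genes with several is given by the one of highest mean log2. The cells were lineage-negative, cKit-positive, Sca1-positive (LSK) bone marrow cells, the fraction that holds blood stem cells and multipotent progenitors. They came from mice of 6 weeks with the genotype Hes1 GFP/WT, in which 1 allele of Hes1, a repressor gene of the Notch pathway, reports through GFP. Both groups carried that allele: 3 arrays were from GFP-positive and 3 from GFP-negative cells, and in each group replicate 1 was female and replicates 2 and 3 male. Separate animals per array are not stated in the labels, and the p-values rest on a spread that could be technical.

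Collagens are the main structural proteins of the extracellular matrix. Each is built from 3 chains wound into a triple helix, of identical or different kinds depending on the type. Fibrillar collagens such as types I and III form the ropes of bone and connective tissue, type IV forms the sheet of basement membranes beneath endothelium and epithelium, and type VI forms beaded filaments around cells. In bone marrow these chains are known mainly as products of osteoblasts, stromal and reticular cells, vessel walls and, for some types, megakaryocytes, and blood progenitors attach to them through integrins.

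Values are log2 of the deposited intensity, and differences are in log2 units. Genes that the animals' sex leaves silent gave a guide to background. Y-linked genes on female arrays reached 4.69, the lower guide, and Xist, the RNA of the inactive X chromosome, reached 5.59 on male arrays, the higher guide. Values follow the order of replicates 1, 2 and 3, GFP-negative before GFP-positive unless named otherwise. Levels of different genes were not compared, since each probe set has its own response.

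GFP-positive replicate 1 stood apart from the other arrays before any collagen is considered. Of 16 endothelial markers 14 were highest in it, beside 27% of all genes. Cdh5, the cadherin of endothelial junctions, was at 9.83 there against values between 4.29 and 5.01 on the others. The summed intensity of those 16 genes was 15295 in that array, 3707 and 2477 in GFP-positive replicates 2 and 3, and between 2395 and 3649 in the GFP-negative arrays. Of 12 marrow stromal markers 8 were highest there, and their summed intensity was 9430 against 2200 and 1542 in replicates 2 and 3 and 1257 to 1994 in the GFP-negative arrays. The 9430 came mainly from Cxcl12. Between GFP-positive and GFP-negative arrays the 12 had a median log2 fold change of 0.027, and 6 were positive (51.3% of all genes). Cxcl12, the chemokine that names these reticular cells, was at 5.34, 5.52 and 5.38 in GFP-negative and at 12.52, 9.27 and 8.33 in GFP-positive arrays, and the adhesion gene Vcam1 at 6.46, 6.66 and 6.83 and at 9.50, 9.24 and 7.38. Neither had overlapping groups (limma adjusted p = 0.454 and 0.529). Ebf3, a transcription factor of the same cells, was at 8.01 in that array and between 5.16 and 5.52 elsewhere. Adipoq, a product of fat cells and their stromal precursors, had GFP-positive values of 9.50, 6.26 and 3.27, in replicate order, and at most 3.69 in GFP-negative arrays. Lepr and Pdgfra, receptors that define much of the marrow stroma, stayed between 5.56 and 5.79 and between 5.10 and 5.87. The fibroblast proteoglycan genes Dcn and Lum lay no higher than 5.59 and 3.65 on any array, and the osteoblast factor Sp7 no higher than 4.45. Of the 5 osteoblast markers measured, however, 2 were higher in GFP-positive arrays without overlap (5.89% of all genes). In GFP-positive replicate 1, 1 of the 5 lay 2 or more units above the median of the others (1.7% of all genes). Among the sort gate and blood identity genes, 0 of 7 were highest in that array, and likewise 0 in GFP-positive replicates 2 and 3. Their summed intensity was 15979, 14429 and 16104 in GFP-positive and 20171 to 20718 in GFP-negative arrays. The sum thus did not set GFP-positive replicate 1 apart. The leukocyte antigen gene Ptprc was at 11.35 there, and Kit, the gene of a gated receptor, was at 9.69 against values between 10.30 and 10.72. The part of other cell types in the collagen values was not tested, and in bulk samples fewer cells of a type and less RNA per cell cannot be told apart.

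Many collagen genes lay near or below the higher guide in LSK cells. By their mean over the arrays 18 were below it and 24 at or above it. Only 15 of the 42 were above the higher guide on all 6 arrays, where 62.3% of all genes were, and 13 were below it on all of them. A further 5 collagen genes, Col3a1, Col6a1, Col6a3, Col11a1 and Col14a1, exceeded it in GFP-positive replicate 1 alone, as 1.64% of all genes did. That array had 29 collagen genes above the guide, against 18 to 21 on each of the others. Over all genes the share above the guide was 71.9% in that array and 68.8% to 70.02% on the others.

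**Figure D1:**
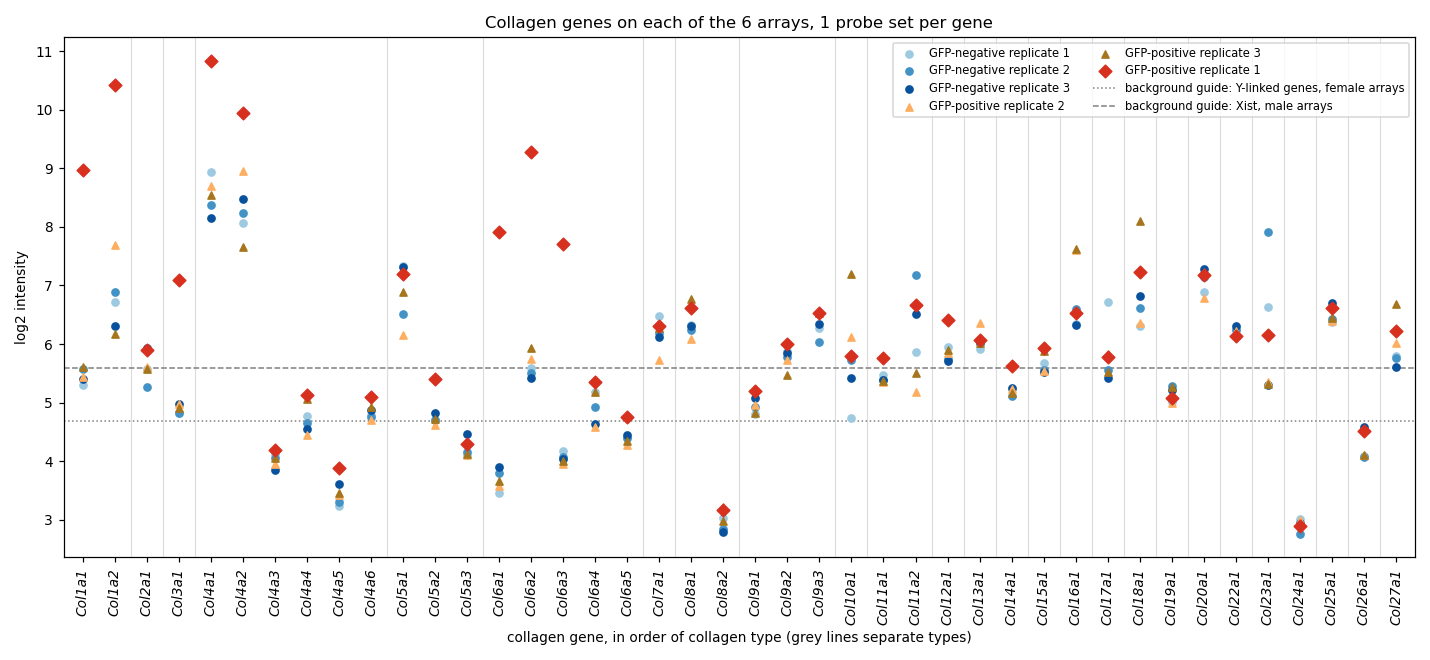
The plot of collagen levels shows log2 intensity (vertical axis) of each of the 42 collagen genes (horizontal axis, ordered by type) on each of the 6 arrays, 1 point per array, with GFP-positive replicate 1 as red diamonds and both background guides as horizontal lines. The red diamonds for Col1a1, Col1a2, Col3a1, Col4a1, Col6a1, Col6a2 and Col6a3 lie at least 2 units above the median of the other 5 arrays.

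In GFP-positive replicate 1, 7 collagen genes lay 2 or more units above the median of the other 5 arrays, and 8 lay 1 or more above it. Over all genes the shares in that array were 1.7% and 6.17%. Counted the same way, the other arrays had 0 or 1 collagen genes at 2 or more, the 1 being Col23a1 in GFP-negative replicate 2, and 0 to 3 at 1 or more. Of the 42 genes 21 were highest in GFP-positive replicate 1, against 27% of all genes, and the other arrays held the maximum of 2 to 6 each. Dim genes of every kind tended to be highest there: of all genes with a mean below the higher guide 36.9% were, beside 13 of the 18 collagen genes in that range. Among the 24 brighter collagen genes 8 were, beside 22.97% of all brighter genes. That array was set apart with earlier results known, so these counts are a description with no test.

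**Figure D2:**
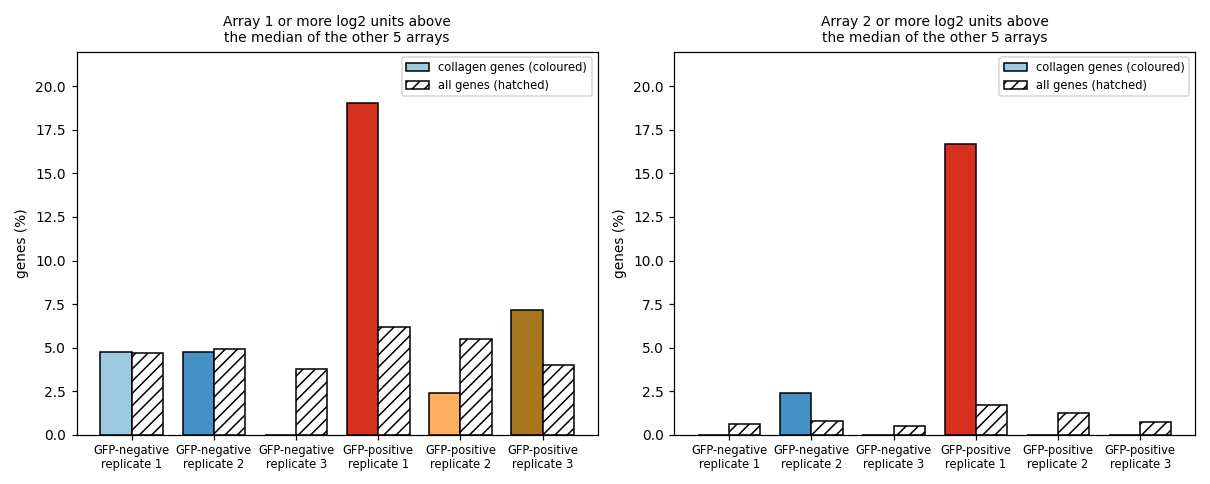
The plot of outlying collagen genes shows, for each array, the percentage of the 42 collagen genes (coloured bars) and of all genes (hatched bars) that lay 1 or more (left) or 2 or more (right) log2 units above the median of the other 5 arrays. In GFP-positive replicate 1 the collagen bars stand for 8 and 7 genes, and on each other array for at most 3 and 1.

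Type I collagen, the fibre of bone, tendon and skin, is a trimer of chains from Col1a1 and Col1a2. Col1a1 was at 5.29, 5.58 and 5.41 on the GFP-negative arrays, in replicate order, against 8.96, 5.43 and 5.61 on the GFP-positive arrays. GFP-positive replicate 1 was 3.53 above the median of the others, which lay near the higher guide and overlapped between groups. A second Col1a1 probe set, above that guide on all arrays, was at 5.75, 5.83 and 5.97 and at 7.16, 5.75 and 5.75, so its excess in the same array was smaller, at 1.41. The mean log2 of the probe sets was 6.05 and 6.04, and over the other 5 arrays the second was the higher. Col1a2 was at 6.72, 6.90 and 6.30 in GFP-negative and at 10.42, 7.70 and 6.16 in GFP-positive arrays. Here GFP-positive replicate 1 was highest, by 3.70, and replicate 2 also lay above all GFP-negative arrays, while replicate 3 lay below them. A second Col1a2 probe set had the same order for replicates 1 and 2, at 6.02, 5.21 and 4.35 in GFP-positive against 4.34, 4.05 and 4.17 in GFP-negative arrays, with all values but 1 below the higher guide. Col3a1, whose chain forms homotrimers in reticular fibres of marrow and vessel walls, was at 4.82, 4.83 and 4.98 and at 7.10, 4.98 and 4.91. Outside GFP-positive replicate 1 it stayed between 4.82 and 4.98, within the guides. The other Col3a1 probe set, below the lower guide throughout, was at 2.88, 2.75 and 2.98 and at 2.69, 2.75 and 3.08. There GFP-positive replicate 1 was the lowest array, so the probe sets differ in whether it stands out.

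The other fibrillar chains did not share that pattern to a comparable size. Col5a2, the neighbour of Col3a1 in the genome and a chain of the type V collagen that nucleates fibrils, was at 5.40 in GFP-positive replicate 1 and between 4.61 and 4.83 elsewhere, below the higher guide throughout. Col5a1, its partner chain, was at 7.33, 6.51 and 7.32 in GFP-negative and 7.19, 6.16 and 6.89 in GFP-positive arrays, with overlapping groups, and in each pair of equal replicate number the GFP-positive array was the lower. Col5a3 stayed between 4.10 and 4.46. The cartilage chains Col2a1 and Col11a1 ranged between 5.27 and 5.93 and between 5.36 and 5.76, close to the higher guide. Col11a2, another type XI chain, was at 5.87, 7.17 and 6.51 and at 6.66, 5.18 and 5.50, so GFP-negative replicate 2 was highest and the GFP-positive males lowest. Col24a1 lay between 2.76 and 3.01, below the lower guide on every array. Col27a1, a fibrillar collagen of cartilage, was at 5.79, 5.76 and 5.60 in GFP-negative arrays and at 6.22, 6.01 and 6.68 in GFP-positive arrays. With that probe set its groups did not overlap. Its other probe set, below the lower guide throughout, was at 4.08, 3.89 and 4.02 and at 4.23, 3.82 and 4.02, with overlapping groups.

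With the probe set of highest mean, type IV collagen showed the highest array in the same place for all 6 of its chains. Col4a1, which with Col4a2 makes the common basement membrane trimer, was at 8.94, 8.37 and 8.16 in GFP-negative and at 10.84, 8.70 and 8.54 in GFP-positive arrays. It was above the higher guide on every array, and GFP-positive replicate 1 exceeded the median of the others by 2.29. Col4a2 was at 8.07, 8.24 and 8.47 and at 9.95, 8.96 and 7.66, so replicates 1 and 2 of the GFP-positive group were highest and replicate 3 was lowest of all. The second Col4a1 probe set was at 5.53, 5.94 and 6.16 and at 9.38, 6.14 and 7.14, with replicate 3 of the GFP-positive group next after replicate 1. The chains Col4a3, Col4a4, Col4a5 and Col4a6, known from kidney, lung and other specialised basement membranes, stayed below the higher guide on every array. In these, GFP-positive replicate 1 exceeded the median of the others by 0.13 to 0.48. Each other probe set of these chains, also below the higher guide, was highest on another array.

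Col4a1 and Col4a2 are neighbouring genes transcribed in opposite directions. In the RefSeq promoter table (GRCm38.p6) the starts of Col4a1 (minus strand) and Col4a2 (plus strand) enclose 22 bases, at chr8:11312805-11312826, shown because the pair shared its highest array. Col4a2 starts at the lower and Col4a1 at the higher position, so these bases lie within both annotated transcripts and not upstream of them. The capitals mark a match to GGGCGG, the GC box bound by Sp1-type factors.
Col4a1/Col4a2, plus strand: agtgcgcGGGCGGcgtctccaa

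Among the other network-forming collagens, Col8a1, a chain made by endothelial and smooth muscle cells, was at 6.32, 6.24 and 6.30 in GFP-negative and at 6.61, 6.09 and 6.77 in GFP-positive arrays with the probe set of highest mean, while Col8a2 lay between 2.80 and 3.22. A dimmer Col8a1 probe set was at 4.26, 3.95 and 3.70 in GFP-negative and at 6.58, 4.15 and 4.0 in GFP-positive arrays, so the probe sets differ in whether replicate 1 stands out. Col10a1, the chain of hypertrophic cartilage, went another way. It was at 4.73, 5.73 and 5.43 in GFP-negative and at 5.80, 6.12 and 7.20 in GFP-positive arrays, with no overlap between groups and its highest value in GFP-positive replicate 3.

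All 3 chains of the common type VI heterotrimer were far higher in GFP-positive replicate 1 than on any other array. Col6a1 was at 3.46, 3.79 and 3.91 in GFP-negative and at 7.91, 3.58 and 3.66 in GFP-positive arrays. The 5 arrays other than GFP-positive replicate 1 lay below the lower guide, so the size of the excess is not defined, and that array was 2.32 above the higher guide. Col6a2 was at 5.59, 5.51 and 5.41 and at 9.27, 5.74 and 5.93, with an excess of 3.68. GFP-positive replicates 2 and 3 also lay above all GFP-negative arrays here, by small amounts, so the groups did not overlap. Col6a3, whose chain carries the long globular end of the heterotrimer, was at 4.17, 4.08 and 4.04 and at 7.71, 3.95 and 4.0. Its other 5 arrays also lay below the lower guide, and GFP-positive replicate 1 was 2.12 above the higher one. The chains Col6a4 and Col6a5, which can take the place of the third chain, stayed below the higher guide on every array, with an excess of 0.44 and 0.37.

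Promoter sequences of these 3 chains and of Col1a2 are shown as examples of genes far higher in GFP-positive replicate 1. Col3a1 and Col4a1, also 2 or more units higher there, had an entry too but are not shown. The sequences come from RefSeq (GRCm38.p6) and give the 250 bases before the start farthest upstream, 5′ to 3′ on the gene's strand. Capitals mark any match, on either strand, to one of 3 motifs. These are CCAAT, the box bound by NF-Y, the GC box GGGCGG named above, and the TATA box TATAAA. The windows are chr6:4505368-4505617, plus strand, for Col1a2; chr10:76726045-76726294, minus strand, for Col6a1; chr10:76623631-76623880, minus strand, for Col6a2; and chr1:90843972-90844221, minus strand, for Col6a3.
Col1a2: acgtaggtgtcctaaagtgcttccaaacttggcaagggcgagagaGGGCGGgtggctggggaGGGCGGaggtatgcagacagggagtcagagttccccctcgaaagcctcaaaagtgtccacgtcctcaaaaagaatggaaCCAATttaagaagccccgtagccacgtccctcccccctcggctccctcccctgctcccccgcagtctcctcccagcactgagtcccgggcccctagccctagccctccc
Col6a1: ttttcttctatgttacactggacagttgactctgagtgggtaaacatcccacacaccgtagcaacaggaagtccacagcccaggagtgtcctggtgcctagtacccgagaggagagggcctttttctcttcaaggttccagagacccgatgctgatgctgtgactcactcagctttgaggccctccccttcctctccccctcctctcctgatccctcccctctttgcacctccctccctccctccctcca
Col6a2: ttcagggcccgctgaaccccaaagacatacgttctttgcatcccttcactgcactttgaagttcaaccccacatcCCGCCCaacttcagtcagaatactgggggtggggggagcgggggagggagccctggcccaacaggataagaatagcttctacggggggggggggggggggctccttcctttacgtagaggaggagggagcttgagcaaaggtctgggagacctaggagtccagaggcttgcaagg
Col6a3: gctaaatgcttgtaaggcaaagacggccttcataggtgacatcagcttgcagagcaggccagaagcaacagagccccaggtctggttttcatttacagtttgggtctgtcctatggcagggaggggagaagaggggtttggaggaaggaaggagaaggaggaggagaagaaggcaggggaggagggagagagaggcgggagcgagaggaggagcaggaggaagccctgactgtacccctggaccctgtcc

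Col1a2 held 1 CCAAT and 2 GGGCGG matches, Col6a2 held 1 GGGCGG match, and Col6a1 and Col6a3 held 0 of the motifs. Of the 42 collagen genes 33 had an entry in the table, with 36 starts in all. GGGCGG was found upstream of 21 of these 36 starts and of 32.7% of all 32851 starts in the table. CCAAT was found at 13 (33.8% of all) and TATAAA at 5 (12.4% of all). Of the 7 genes that stood 2 or more units higher in GFP-positive replicate 1, 6 had an entry, and taking the start farthest upstream 2 of them held CCAAT, 2 GGGCGG and 1 TATAAA. A match is a description of letters and not a site of binding.

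The FACITs, collagens that sit on the surface of fibrils, gave 9 genes, and with the probe set of highest mean GFP-positive replicate 1 exceeded the median of the others by 1 unit in 0 of them. Col12a1, a FACIT of tendon and bone, was at 5.95, 5.74 and 5.71 in GFP-negative and at 6.41, 5.84 and 5.90 in GFP-positive arrays, with that array highest. A dimmer Col12a1 probe set was at 4.69 there and between 2.58 and 3.05 elsewhere, at or below the lower guide throughout. Col14a1 was at 5.63 and between 5.11 and 5.26 with the probe set of highest mean. Col16a1, found near microfibrils and basement membranes, was at 6.35, 6.61 and 6.32 in GFP-negative and at 6.53, 7.61 and 7.62 in GFP-positive arrays. Its GFP-positive males lay above all other arrays, and GFP-positive replicate 1 lay among the GFP-negative values. The cartilage gene Col9a3 was at 6.27, 6.04 and 6.35 and at 6.53, 6.53 and 6.54, without overlap but within a range of 0.50. The other Col9a3 probe sets, below the lower guide throughout, had overlapping groups. Col9a1 and Col19a1 stayed below the higher guide on every array. Col9a2 lay between 5.47 and 5.99. Col20a1 was at 6.89, 7.15 and 7.28 and at 7.18, 6.78 and 7.23, with the groups overlapping. Col22a1, a collagen of tissue junctions, was at 6.26, 6.24 and 6.31 in GFP-negative and 6.14, 6.22 and 6.15 in GFP-positive arrays, the only member whose GFP-positive values all lay below the GFP-negative ones.

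The multiplexins are basement membrane collagens whose C-terminal fragments, such as endostatin from type XVIII, restrain vessel growth. Col18a1 was at 6.31, 6.61 and 6.81 in GFP-negative and at 7.23, 6.36 and 8.10 in GFP-positive arrays, with GFP-positive replicate 3 highest and replicate 1 next. Its other probe set was at 7.43, 6.65 and 6.73 in GFP-positive arrays, where replicate 1 was highest and replicate 3 lay among the rest. Col15a1 stayed between 5.52 and 5.93.

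The transmembrane collagens showed 0 genes with their maximum in GFP-positive replicate 1. Col23a1 was at 6.64, 7.92 and 5.30 in GFP-negative and at 6.15, 5.35 and 5.32 in GFP-positive arrays, and its spread within the GFP-negative group was larger than the gap between groups. Its other probe sets, at or below 4.52, did not repeat this. Col17a1, of the junctions that anchor epithelium, was at 6.72, 5.56 and 5.43 in GFP-negative arrays and between 5.52 and 5.83 in GFP-positive arrays. Col13a1 and Col25a1 were above the higher guide on all arrays with overlapping groups. Col13a1, found at cell adhesions and the neuromuscular junction, was at 5.91, 6.07 and 6.01 and at 6.06, 6.36 and 6.01. Col25a1, a collagen of neurons, was at 6.37, 6.44 and 6.70 and at 6.62, 6.39 and 6.45. Col7a1, the anchoring fibril chain of skin, was at 6.48, 6.19 and 6.11 and at 6.31, 5.73 and 6.27, also with overlap. Col26a1, outside these families, lay between 4.07 and 4.58.

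The comparison of groups asks which genes differ between progenitors with and without signal from the Hes1 locus. Hes1 itself was at 6.78, 6.79 and 7.10 on the GFP-negative and 7.36, 7.09 and 7.84 on the GFP-positive arrays (0.54 ± 0.24, limma adjusted p = 0.780). By limma, 0 of the 42 collagen genes passed an adjusted p of 0.05 in either direction, as did 0% of all genes. An unadjusted p under 0.05 was reached by 2 collagen genes that were higher and by 0 that were lower, beside 3.33% and 3.38% of all genes. The count of higher genes was 0 without GFP-negative replicate 1 or without GFP-negative replicate 3, 1 without GFP-negative replicate 2 and 4 without GFP-positive replicate 2. Without GFP-positive replicate 1 it was 2 higher, Col16a1 and Col10a1, and 1 lower, Col11a2 (3.76% of all genes each way). Over all 6 arrays the higher genes were ones without a jump in GFP-positive replicate 1, Col27a1 at 0.59 ± 0.21 (log2 fold change GFP-positive minus GFP-negative ± SE, n = 3 per group, limma adjusted p = 0.680) and Col16a1 at 0.83 ± 0.33 (limma adjusted p = 0.737). Next by p came Col10a1 at 1.07 ± 0.44, Col9a3 at 0.32 ± 0.15 and Col6a2 at 1.48 ± 0.95, with limma adjusted p-values of 0.748, 0.811 and 0.918. The groups did not overlap in 4 collagen genes that were higher (5.89% of all genes) and in 1 that was lower (5.51%).

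The chains with a jump in GFP-positive replicate 1 had large fold changes with large errors. Col1a2 was at 1.45 ± 1.03, Col6a1 at 1.33 ± 1.18, Col1a1 at 1.24 ± 0.95 and Col6a3 at 1.12 ± 1.02. Col4a1 was at 0.87 ± 0.65 and Col3a1 at 0.79 ± 0.60, and Col23a1 lay the other way at -1.01 ± 0.67. Without GFP-positive replicate 1 the fold changes became 0.29 for Col1a2, -0.10 for Col6a1, 0.10 for Col1a1, -0.13 for Col6a3, 0.13 for Col4a1 and 0.07 for Col3a1. Col6a1 and Col6a3 thus changed sign. Of the 42 genes 6 had a fold change of 1 or more (3.46% of all genes) and 1, Col23a1, of -1 or less (2.58%), and without that array 2 had 1 or more (3.76%), Col10a1 at 1.36 ± 0.46 and Col16a1 at 1.19 ± 0.17. A fold change of -1 or less was then found in 2, Col11a2 at -1.18 ± 0.42 and Col23a1 at -1.28 ± 0.78 (3.37%). For Col16a1 the 5 arrays gave the smallest limma adjusted p of any collagen gene, 0.258.

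As a list, the collagen genes had a median fold change of 0.15, beside 0.0077 over all genes, and 30 of 42 were positive (51.3% of all genes). Without GFP-positive replicate 1 the median was 0.0029, beside -0.031 over all genes, and 22 were positive (45.3%). Between the female arrays, both replicate 1, 36 of the 42 genes were higher in the GFP-positive one, beside 57.3% of all genes, with a median difference of 0.32 (0.078 over all genes). Between the males of the same number 19 and 20 were higher, beside 45.5% and 48.4% of all genes. Their medians were -0.022 and -0.011, beside -0.044 and -0.015 over all genes. The GFP-negative female array, where 4 collagen genes had their maximum, did not share the high values of GFP-positive replicate 1.

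**Figure D3:**
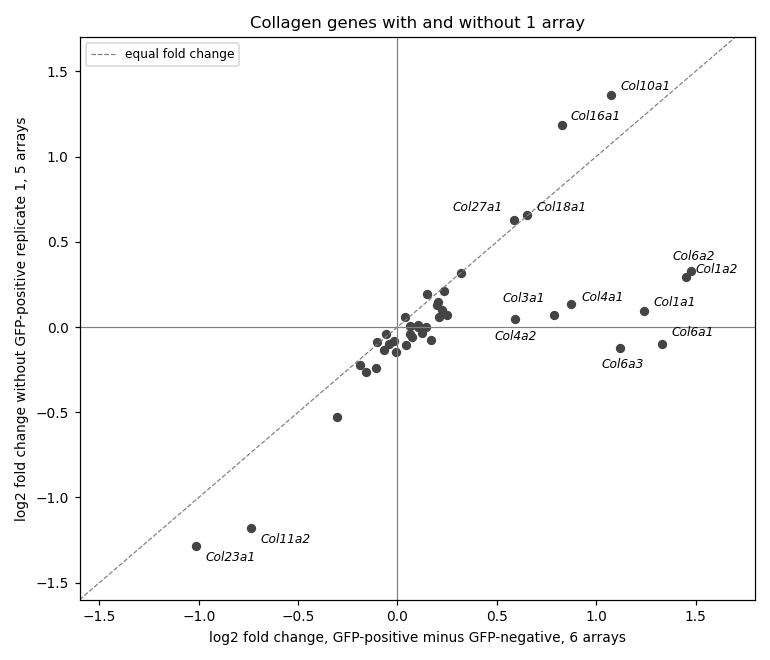
The plot of fold changes with and without 1 array shows each of the 42 collagen genes as a point, with its log2 fold change (GFP-positive minus GFP-negative) over 6 arrays on the horizontal axis and over the 5 arrays without GFP-positive replicate 1 on the vertical axis. Col1a1, Col1a2, Col3a1, Col4a1, Col4a2, Col6a1, Col6a2 and Col6a3 go from values between 0.59 and 1.48 to values between -0.13 and 0.33, while Col10a1, Col16a1, Col18a1 and Col27a1 lie at 0.63 or more on the vertical axis.

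Single probe sets widened the picture for a few genes. Of the 82 collagen probe sets 37 were highest in GFP-positive replicate 1 (24.2% of all probe sets) and 11 lay 2 or more units above the median of the others (1.91%), 4 of them not the probe set that stood for its gene. By limma across all probe sets 0 collagen probe sets passed, and 4 were higher at an unadjusted p under 0.05 (3.07% of all probe sets). The groups did not overlap in 10 collagen probe sets that were higher (5.69% of all probe sets) and 2 that were lower (5.78%). A dimmer Col5a1 probe set was at 6.14, 5.25 and 5.82 in GFP-negative and at 6.96, 8.02 and 7.35 in GFP-positive arrays, without overlap (limma adjusted p = 0.485). A dimmer Col14a1 probe set was at 3.02, 3.12 and 2.94 and at 5.34, 3.92 and 5.41 (limma adjusted p = 0.496). In both genes the brightest probe set, given above, had overlapping groups, so the probe sets of 1 gene disagreed and neither difference can be assigned to the whole gene.

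Collagen chains are hydroxylated, folded by a dedicated chaperone, trimmed outside the cell and crosslinked, and the genes for these steps were read beside them. For chain modification and folding, 23 of the listed symbols were measured, with a median fold change of 0.07, beside 0.0077 over all genes. At an unadjusted p under 0.05 there was 1 higher gene (3.33% of all genes) and 0 lower (3.38%). Serpinh1, the collagen chaperone HSP47, was at 5.16, 6.75 and 5.80 in GFP-negative and at 10.12, 5.41 and 6.69 in GFP-positive arrays, so its high array was the one in which type I and VI chains were high. Plod1, a lysyl hydroxylase of collagen, was at 4.11, 5.98 and 6.21 and at 8.64, 7.63 and 8.43, higher in all GFP-positive arrays (2.80 ± 0.61, limma adjusted p = 0.436). P4ha1, a subunit of the prolyl hydroxylase that stabilises the helix, lay between 7.81 and 11.02 and was highest in GFP-negative replicate 2. Without GFP-positive replicate 1 the list's median was -0.0087, beside -0.031 over all genes.

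Procollagen processing and crosslinking gave 12 genes with a median of 0.02, and of -0.23 without GFP-positive replicate 1. At an unadjusted p under 0.05 there was 1 higher gene (3.33% of all genes) and 0 lower (3.38%). Lox, the lysyl oxidase that starts crosslinking, was at 7.58 in GFP-positive replicate 1 and between 4.67 and 5.31 elsewhere. Tgm2, a transglutaminase that crosslinks matrix proteins and is also made by endothelium and macrophages, was at 9.27, 8.87 and 8.87 in GFP-negative and at 12.07, 12.07 and 10.25 in GFP-positive arrays. In contrast to Lox it was high in GFP-positive replicates 1 and 2 alike (2.46 ± 0.52, limma adjusted p = 0.420). Loxl3, a relative of Lox, was at 0.62 ± 0.28 (limma adjusted p = 0.793).

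Receptors and breakdown enzymes came next. Of 10 collagen receptor genes 0 passed an unadjusted p of 0.05 (3.33% of all genes higher, 3.38% lower). Their median was 0.12 (-0.066 without GFP-positive replicate 1). Itga2, the integrin chain by which platelets and some progenitors bind collagen, was at 5.72, 5.61 and 6.54 in GFP-negative and at 7.03, 6.56 and 8.90 in GFP-positive arrays, without overlap (limma adjusted p = 0.755). Mrc1, an endocytic receptor of macrophages and sinusoidal endothelium, was at 7.12, 3.86 and 4.73 and at 9.38, 6.93 and 5.35, with a wide spread in both groups. Of 14 breakdown genes 2 higher and 1 lower gene had an unadjusted p under 0.05, with a median of 0.27 (0.058 without that array). Mmp14, a membrane collagenase, was at 9.60, 6.86 and 7.78 in GFP-positive arrays and at 6.40, 6.01 and 6.52 in GFP-negative ones. The metalloproteinase inhibitor Timp3 was at 1.84 ± 0.56 (limma adjusted p = 0.592). Mmp2, a gelatinase, ran the other way at 8.59, 8.49 and 8.45 against 7.28, 6.74 and 7.82 (limma adjusted p = 0.464).

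Matrix partners were read last. The 17 basement membrane partners had a median of 0.27, which was 0.0056 without GFP-positive replicate 1. Of them 0 had an unadjusted p under 0.05 (3.33% of all genes higher, 3.38% lower), and 11 were highest in that array (27%). Nid1, which links laminin to type IV collagen, was at 10.59 there and between 5.12 and 5.51 elsewhere, and Hspg2, the proteoglycan perlecan, at 10.17 and between 7.35 and 7.56. Sparc, which binds collagen and is made by megakaryocytes as well as stroma, was at 5.49, 5.37 and 5.95 in GFP-negative and at 12.32, 7.49 and 6.50 in GFP-positive arrays. As for Col1a2, GFP-positive replicates 1 and 2 were highest. Replicate 3 of Sparc also lay above all GFP-negative arrays, while that of Col1a2, with the probe set of highest mean, lay below them. The laminin chain gene Lama5 lay between 6.54 and 7.70. Fibril-associated proteins, 21 genes, had a median of 0.05 (-0.0003 without that array), with 2 genes higher at an unadjusted p under 0.05 and 0 lower. The small proteoglycan gene Bgn was at 5.67, 6.11 and 5.65 and at 11.15, 8.12 and 7.87, above all GFP-negative arrays in every GFP-positive one (limma adjusted p = 0.528). Postn, which binds type I collagen, was at 4.88, 8.44 and 7.17 and at 7.91, 5.03 and 4.99, and Ogn, another small proteoglycan gene, was at 1.03 ± 0.42 (limma adjusted p = 0.745).

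**Figure D4:**
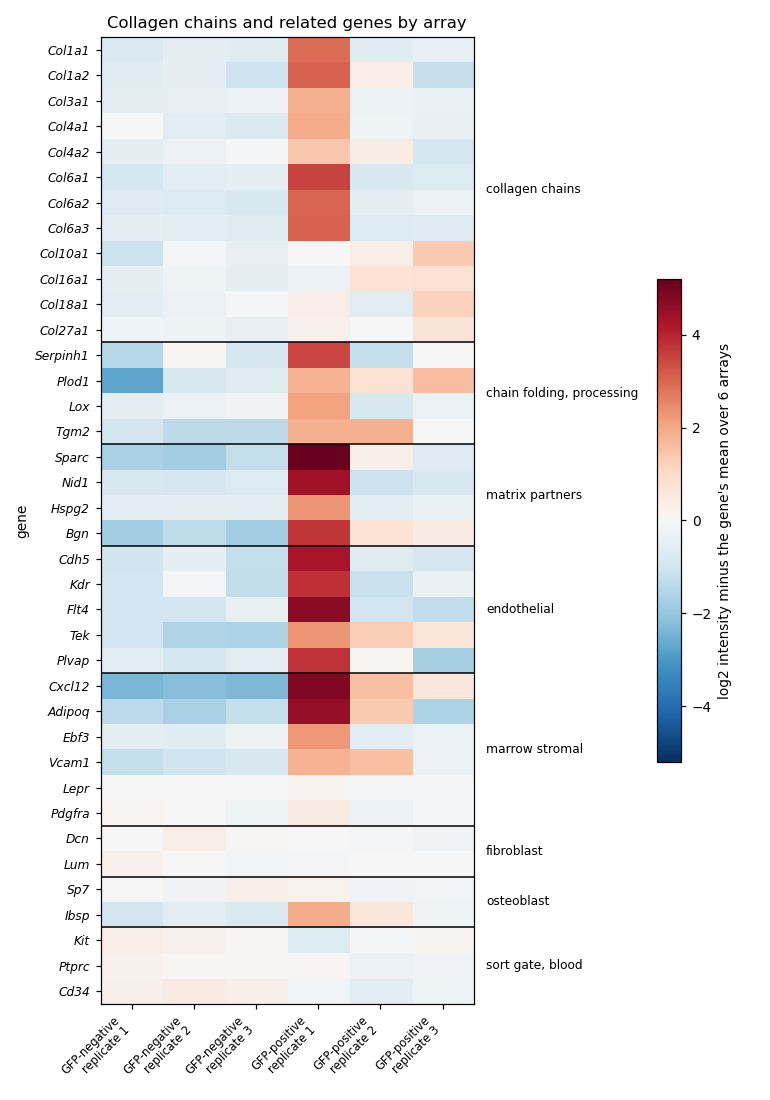
The heat map of collagen chains and related genes shows log2 intensity minus each gene's mean over the 6 arrays (colour scale in log2 units, red above and blue below the mean), with genes in rows grouped by role and arrays in columns. The column of GFP-positive replicate 1 is red for the 8 chains of types I, III, IV and VI shown, Serpinh1, Lox, Nid1 and Cdh5, near white for Lepr, Dcn and Lum, and blue for Kit.

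Markers of other cell types were read beside these values, and 27% of all genes were highest in GFP-positive replicate 1. Osteoblast markers, of which 3 of 5 were highest in GFP-positive replicate 1, had a summed intensity of 690 there, 321 and 245 in replicates 2 and 3, and 181 to 200 in GFP-negative arrays, which came mainly from the bone matrix gene Ibsp at 9.06, 7.71 and 6.92 in GFP-positive arrays. Dmp1, an osteocyte gene, stayed below the higher guide. For chondrocyte markers, 4 of 8 highest there, the sum was 483 in that array and 279 and 355 in replicates 2 and 3. It was 274 to 309 in GFP-negative arrays. In GFP-positive replicate 1 the cartilage chains Col2a1, Col9a1, Col9a2, Col9a3, Col10a1 and Col11a1 lay 0.07 to 0.37 above the median of the others. Col27a1 lay 0.43 and Col11a2 0.79 above it in that array. Sox9, the cartilage master regulator, was at 7.70 there and between 6.01 and 6.26 elsewhere. Matn1 and Matn3, cartilage matrilins, lay between 2.86 and 3.13 and between 4.51 and 4.80. For smooth muscle and pericyte markers, 6 of 9 highest there, the sum was 831 there, 526 and 621 in replicates 2 and 3 and 588 to 620 in GFP-negative arrays, and Mcam, an adhesion molecule of pericytes and endothelium, was at 7.47 there and between 4.67 and 5.34 elsewhere. Acta2 lay between 5.93 and 6.32 and Rgs5 between 4.88 and 5.28. Fibroblast markers, 2 of 9 highest there, summed to 2566 in that array, to 3642 and 3107 in replicates 2 and 3 and to 1535 to 2424 in GFP-negative arrays. Megakaryocyte and platelet markers, 1 of 7 highest there, summed to 7173, 8218 and 6513 in GFP-positive and to between 1583 and 2919 in GFP-negative arrays, so they did not set GFP-positive replicate 1 apart. The part of any of these in the collagen values was not tested.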

How the data were processed

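For 45101 probe sets the values deposited by the authors are linear intensity, not logged. RMA (background correction, quantile normalisation and probe summary) is named in the submitters' processing notes, with version and settings not given in the sources used here. Per the labels' protocols, 5 ng of total RNA was amplified and biotin-labelled. RMA shrinks differences near background. Log2 was taken without a pseudocount, since the lowest deposited intensity was 4.12, and nothing was normalised again.

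The platform table gave 34958 probe sets 1 symbol, 932 several and 9211 none, and those with 1 symbol gave 18194 genes. All 42 collagen symbols matched a RefSeq gene list of assembly GRCm38.p6, which served names and gene neighbours. The groups were compared with limma 3.58.1 (lmFit, eBayes, R 4.3.3) without covariates, with Benjamini-Hochberg adjustment (threshold 0.05) over all 18194 genes, in a pipeline tested on simulated data. The number of arrays limits the precision. List counts and medians carry no test. Figures used matplotlib 3.10.9.

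Members and lists were chosen with earlier results of these data known. Array values were given for genes above the higher guide on all arrays, for genes whose top array exceeded the median of the others by 2 or more and for the 5 of smallest p. From each pathway list the 2 genes of widest range and the 2 of smallest p were named, and Hes1. Other named collagens, Hspg2 and all marker genes were chosen after their values were seen. The lists share Dcn and Lum.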

Additional observations from a re-analysis of the deposited data

How the results depend on the processing

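Genes were also summarised by probe set means or single probe sets, filtered at percentile 40 or 60 of mean level, refitted with other priors, weights, scalings, a replicate block, a sex term, males only or a threshold of 0.1, and with each array left out. In these settings 0 collagen genes passed, the 0.1 threshold included. The count at an unadjusted p under 0.05, 2 higher with 0 lower, became 0 higher with either percentile filter, 1 higher with a robust prior, quantile normalisation or median centring, 1 higher and 1 lower in males alone, and ranged from 0 to 4 higher and 0 to 1 lower on leaving out single arrays. The median over the collagen genes was 0.46 above percentile 40 (10 genes left) and 0.73 above percentile 60 (2 left), and 0.0029 to 0.20 on leaving out single arrays. Genes highest in GFP-positive replicate 1 numbered 3 of 10 and 2 of 2 after those filters, 20 to 24 of 42 under other scalings or probe set means, and 22 to 25 without another array. The stricter filter gave -0.022 for chain modification, 1.28 for processing and crosslinking and 0.54 for basement membrane partners. That 1.28 rests on Furin at 0.11 and Tgm2 at 2.46, the only genes of the list left. Males alone gave -0.022, -0.23 and -0.014 for these lists. Leaving out single arrays gave -0.0087 to 0.13 for chain modification, -0.23 to 0.12 for processing, -0.066 to 0.23 for receptors, 0.058 to 0.42 for breakdown, 0.0056 to 0.44 for basement membrane and -0.0003 to 0.16 for fibril-associated genes. In males alone Col6a1 was at -0.23 and Col6a3 at -0.088, and they ranged from -0.10 to 2.07 and from -0.13 to 1.75 over the omissions. Other probe sets gave 0.14 for Col23a1 and -0.028 for Col3a1. Filters leave fewer genes and omissions fewer arrays; the cause of the other changes was not tested.

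Whether the replicate number pairs the arrays is not stated in the labels and was not tested. Deviations from the group means correlated weakly, at 0.12, 0.05 and 0.09 for numbers 1, 2 and 3. For unlike numbers the correlations lay between -0.098 and 0.0077, so each array correlated best with its own number. Deviations cancel out within each group, so correlations for like and unlike numbers depend on each other. Number 1 was the female array in both groups, so pairing and sex cannot be told apart there. With the replicate block an unadjusted p under 0.05 was met by 2 collagen genes higher and 0 lower, 0 passed, and the median was 0.15.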
